A study of Mus musculus with 18 samples.

Results

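Msi2, Cuedc1 and Esco1 were each measured by several array probe sets that gave different answers about genotype in the mouse retina. They were chosen because 1 probe set of the gene differed over 4-fold between Rpe65-/- mice and controls while a further probe set did not. Every probe set that the platform annotation assigned to 1 of the 3 genes alone was taken, which gave 3 of the 18193 genes measured and 13 of the 45037 probe sets on the array that were no controls. Of these, 8 named Msi2, 3 named Cuedc1 and 2 named Esco1. The genotype differences of these probe sets are therefore a description and carry no test.

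The study compared retinas of RPE65-/- mice, which lack the retinoid isomerase of the pigment epithelium, with retinas of C57BL/6 mice. Mice of both genotypes were taken when 2, 4 or 6 months old, which made 6 groups of 3 retinas, each on an array of its own (18 arrays). The labels named no further allele or treatment. They named the knockouts by genotype only, so an effect of the allele and of any difference in strain background cannot be told apart. The labels called the 3 retinas of a group biological replicates.

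Musashi-2, the product of Msi2, is an RNA-binding protein that regulates the translation and splicing of its target transcripts. In photoreceptors, Musashi proteins promote the inclusion of photoreceptor-specific exons in transcripts of cilium and synapse genes. Cuedc1 encodes a protein with a CUE domain, a fold that binds ubiquitin. Esco1 encodes an acetyltransferase that modifies the Smc3 subunit of cohesin, the ring complex that holds sister chromatids together and shapes chromatin loops.

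A probe set is a group of short oligonucleotides designed against 1 source sequence, usually an expressed sequence tag or a cDNA clone, and several probe sets can report different stretches or ends of transcripts of a gene. The suffix of its name tells what its probes match: "_a_at" marks a set shared by transcripts of 1 gene, while "_s_at" and "_x_at" mark sets that can also detect other genes. Among the 13 probe sets, 2 of Msi2 were of the type "_a_at", 11 were of the plain type, and 0 were of the type "_s_at" or "_x_at". The positions of the probes within the genes were not used here.

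Cuedc1 and Msi2 lie on chromosome 11, with 2 measured genes, Mrps23 and Ccdc182, between them in RefSeq gene order. RefSeq lists 5 curated and 17 model transcripts for Msi2, 2 curated transcripts and 0 model transcripts for Cuedc1, and 1 curated and 3 model transcripts for Esco1. Cuedc1 has 2 annotated starts, 70419 bases apart, and Msi2 has 3 within 48 bases. The 250 bases before 3 of these starts follow from RefSeq (build GRCm38.p6). They are given because the Cuedc1 starts show that this gene has transcripts with separate 5′ ends. Capitals mark each CG.
Cuedc1, upstream start, chr11:88098896-88099145, plus strand: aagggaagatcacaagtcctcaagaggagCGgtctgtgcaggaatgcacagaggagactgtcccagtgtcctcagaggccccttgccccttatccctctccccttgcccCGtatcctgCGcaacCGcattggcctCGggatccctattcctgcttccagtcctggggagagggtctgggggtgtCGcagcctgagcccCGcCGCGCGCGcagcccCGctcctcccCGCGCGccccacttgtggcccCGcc
Cuedc1, downstream start, chr11:88169315-88169564, plus strand: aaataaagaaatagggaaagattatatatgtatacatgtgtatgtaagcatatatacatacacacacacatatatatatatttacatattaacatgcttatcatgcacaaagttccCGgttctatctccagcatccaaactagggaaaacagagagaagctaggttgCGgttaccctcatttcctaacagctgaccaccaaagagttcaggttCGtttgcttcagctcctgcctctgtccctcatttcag
Msi2, chr11:88718278-88718527, minus strand: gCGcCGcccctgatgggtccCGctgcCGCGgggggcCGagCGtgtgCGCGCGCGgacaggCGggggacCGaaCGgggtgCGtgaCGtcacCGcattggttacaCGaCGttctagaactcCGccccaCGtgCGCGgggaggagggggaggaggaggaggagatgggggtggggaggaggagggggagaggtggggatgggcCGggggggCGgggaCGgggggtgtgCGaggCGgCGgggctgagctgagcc
The window of the upstream Cuedc1 start holds 16 CG, and 25.4% of the 32851 promoter windows of the same length hold as many or more. The window of the downstream Cuedc1 start holds 3 CG, a number that 71.0% of windows reach, and the median window holds 6. The Msi2 window holds 29, which 6.78% of windows reach. The letters TAATCC, searched on both strands as the core recognised by the photoreceptor homeodomain factor Crx, occur 0 times in the 3 windows and in 6.25% of all windows. No probe set could be assigned to either Cuedc1 start here.

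The deposited values are ratios: the signal of a probe set on an array, divided by the median signal of that array and, for most probe sets, by the probe set's own median over the 18 arrays, so that 1 is a middle value. Probe sets whose median fell below a fixed level were divided by that level in its place and are called dim. Of the 13 probe sets, 12 were not dim, and the dim one was Msi2 1421231_at. Differences between genotypes are given as log2 of knockout over control, averaged over the 3 ages, with the standard error of a limma fit over all 45037 probe sets.

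As a check of the labels, the Rpe65 probe set 1450197_at, itself dim, lay at ratios of 0.0348 to 0.815 in knockouts and 0.609 to 46.7 in controls, a difference of -5.96 ± 0.73 (adjusted p = 0.000207, limma with Benjamini-Hochberg adjustment). Before scaling, the median signal of an array was 32.8 to 45.8 in the group of 6 months and 6.8 to 14.3 in the younger ones, so age at 6 months and array signal cannot be told apart. Summed over marker lists, cone markers (5 of 5 measured) lay at 27.1 to 51.8 array medians in knockouts and 134 to 182 in controls, while rod markers (4 of 5) lay at 773 to 903 and 874 to 1197. Müller glia markers (4 of 4) lay at 212 to 245 and 199 to 229, and lens markers (5 of 5) at 0.943 to 1140 and 2.41 to 549. Pigment epithelium markers (5 of 5) lay at 113 to 460 in knockouts and 26.2 to 376 in controls. The Rpe65 ranges overlapped, and the control of lowest Rpe65 ratio, retina 11 of 2 months, also had the lowest sum of pigment epithelium markers. In whole retina, fewer cells of a type and less RNA per cell cannot be told apart. The cone marker sums did not overlap between genotypes, and their part in the members' differences was not tested. Xist and Y-linked genes read 8 of the 9 knockouts and 3 of the 9 controls as male.

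**Figure D1:**
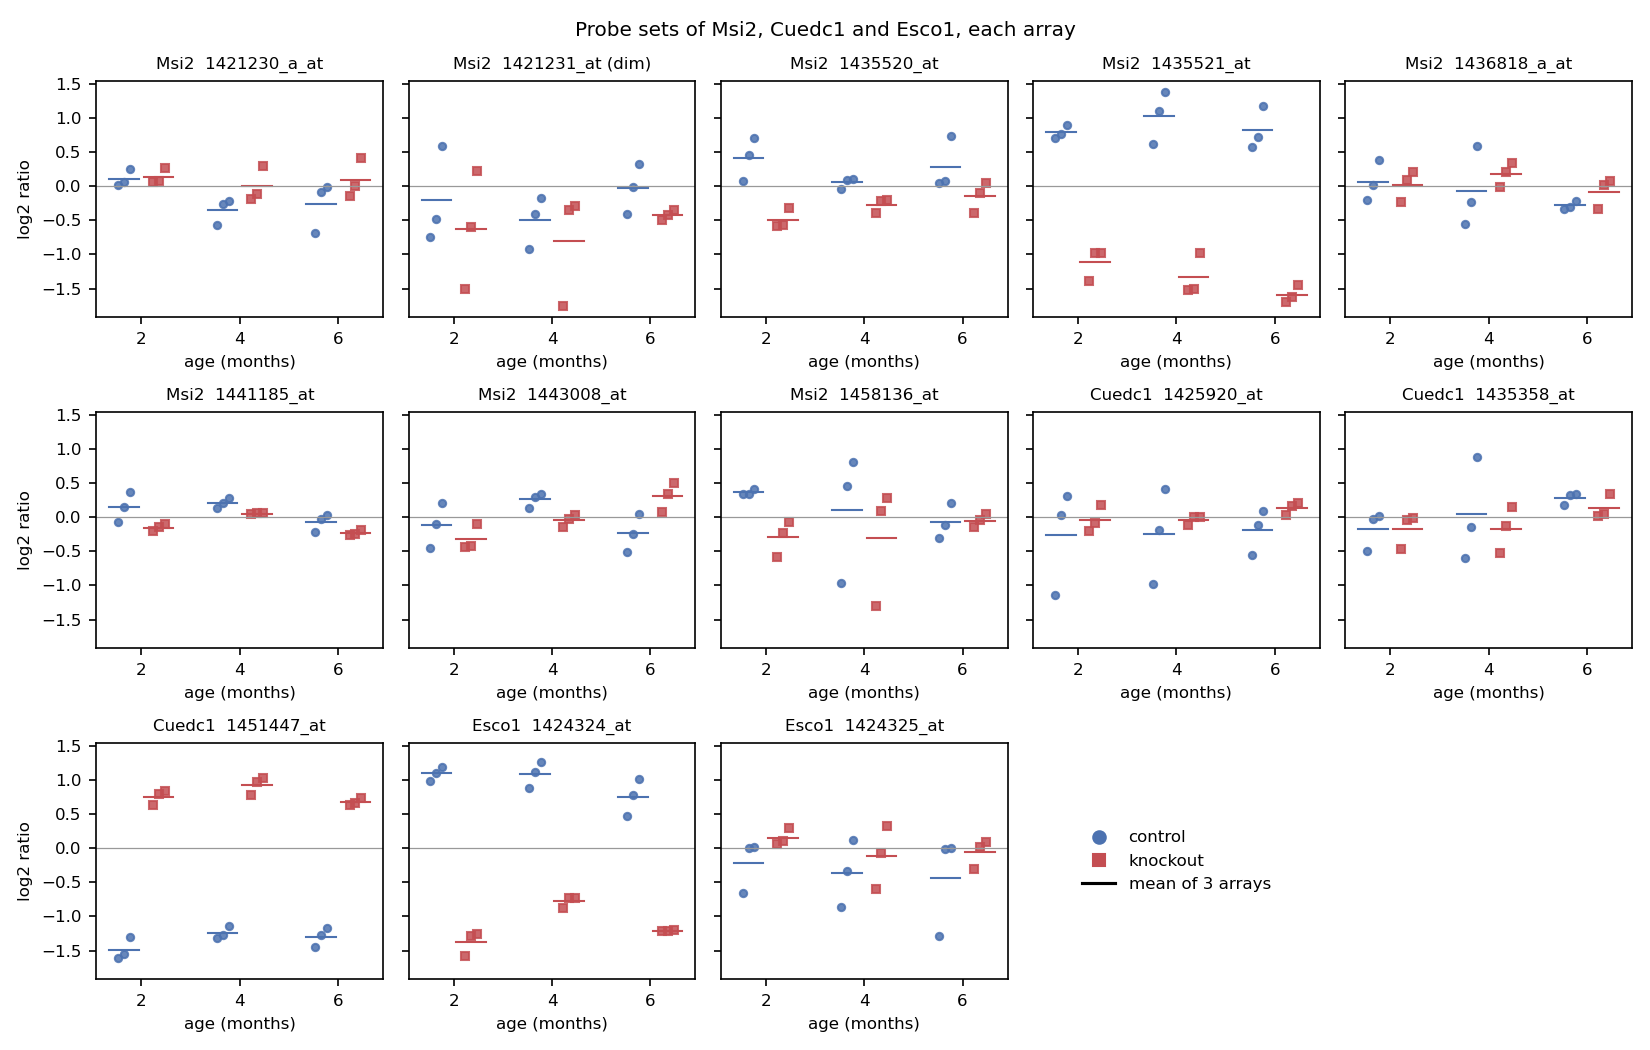
Deposited ratio (log2 axis, no unit) of each of the 13 probe sets of Msi2, Cuedc1 and Esco1 in each of the 18 arrays, by genotype and age, 1 point per retina. Knockouts of Msi2 1435521_at and Esco1 1424324_at all lie below the controls and those of Cuedc1 1451447_at all lie above, while the further probe sets of each gene overlap between genotypes over the 18 arrays.

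The Msi2 probe set 1435521_at was the one that chose the gene. Its ratios in knockouts of 2 months were 0.506, 0.509 and 0.383, those of 4 months 0.510, 0.353 and 0.348, and those of 6 months 0.366, 0.307 and 0.325. Controls of 2 months had 1.64, 1.86 and 1.70, those of 4 months 2.60, 1.53 and 2.15, and those of 6 months 2.25, 1.65 and 1.49. All 9 knockouts lay below all 9 controls. In order of age, the group means were 0.466 ± 0.0717, 0.404 ± 0.0918 and 0.333 ± 0.0304 in knockouts and 1.73 ± 0.114, 2.09 ± 0.535 and 1.80 ± 0.402 in controls (SD, n = 3). The difference was -2.23 ± 0.13, or 4.69-fold lower in knockouts. In multiples of the array's median probe set, the level was 60.7 to 106 in controls and 12.5 to 20.7 in knockouts, so this probe set read well above the array median in both genotypes.

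Msi2 1435520_at was designed against the same source sequence as 1435521_at. Its ratios were 0.804, 0.670 and 0.672 in knockouts and 1.37, 1.64 and 1.05 in controls at 2 months. They were 0.861, 0.762 and 0.873 against 1.07, 1.08 and 0.970 at 4 months, and 0.938, 1.03 and 0.764 against 1.03, 1.66 and 1.06 at 6 months. The knockouts lay below the controls at 2 and 4 months, and at 6 months the highest knockout reached the lowest control. The difference was -0.55 ± 0.12, in the same direction as that of 1435521_at but far smaller. It no longer passed the threshold without the 2 knockouts of highest lens signal, both of 2 months (-0.49, adjusted p = 0.121 in limma), or without the 2 controls of lowest actin 5' to 3' difference (-0.50, adjusted p = 0.0559).

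The other 6 Msi2 probe sets did not separate the genotypes over all ages. Probe set 1421230_a_at, which matches several Msi2 transcripts, ran from 0.880 to 1.33 in knockouts and 0.620 to 1.19 in controls, a difference of 0.24 ± 0.12. Its knockouts lay above its controls at 4 months and overlapped them at 2 and 6 months. Probe set 1436818_a_at, also shared by Msi2 transcripts, ran from 0.794 to 1.27 in knockouts and 0.679 to 1.5 in controls, a difference of 0.13 ± 0.15. Probe set 1441185_at was the steadiest within groups, with a within-group SD of 0.11 on the log2 scale. It ran from 0.835 to 1.04 in knockouts and 0.857 to 1.29 in controls, a difference of -0.20 ± 0.07. Its knockouts lay below its controls at 2 months (0.868 to 0.929 against 0.956 to 1.29) and at 4 months (1.03 to 1.04 against 1.10 to 1.22). At 6 months they overlapped.

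Among the Msi2 probe sets of low level, 1458136_at differed by -0.35 ± 0.25 with a within-group SD of 0.54. Its knockouts lay below its controls at 2 months and overlapped them at 4 and 6 months. The dim 1421231_at, from the same source sequence as 1421230_a_at, differed by -0.37 ± 0.28 with a within-group SD of 0.61, and it lay below the array median in 9 knockouts and 8 controls. These were the widest spreads among the 13 probe sets. Probe set 1443008_at differed by 0.01 ± 0.11 over the mean of the ages, with a change of sign between ages given below. Of the 8 Msi2 probe sets, 5 thus had a negative and 3 a positive estimate, and the sign of 1443008_at and 1436818_a_at changed under some alternatives of processing.

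For Cuedc1 the direction was the opposite. Ratios of 1451447_at were 1.78, 1.74 and 1.55 in knockouts and 0.342, 0.327 and 0.404 in controls at 2 months. They were 2.05, 1.71 and 1.96 against 0.413, 0.402 and 0.454 at 4 months, and 1.66, 1.58 and 1.55 against 0.415, 0.445 and 0.367 at 6 months. All 9 knockouts lay above all 9 controls. The group means, by age, were 1.69 ± 0.12, 1.91 ± 0.174 and 1.59 ± 0.0575 in knockouts and 0.358 ± 0.0409, 0.423 ± 0.0279 and 0.409 ± 0.0392 in controls (SD, n = 3). The difference was 2.13 ± 0.08, or 4.37-fold higher in knockouts, and the level was 12.4 to 16.4 array medians in knockouts and 2.62 to 3.63 in controls.

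The further Cuedc1 probe sets, each from a source sequence of its own, overlapped between genotypes, and the signs of their differences changed under some alternatives. Probe set 1425920_at read 1.13, 0.873 and 0.940 in knockouts and 1.02, 1.24 and 0.454 in controls at 2 months. It read 0.998, 0.925 and 1.0 against 1.33, 0.877 and 0.507 at 4 months, and 1.02, 1.12 and 1.15 against 0.683, 0.928 and 1.07 at 6 months. The controls were scattered on both sides of the knockouts, with a within-group SD of 0.63 on the log2 scale in controls and 0.13 in knockouts, and the difference was 0.25 ± 0.21. Its level was low, and 3 controls fell below the array median. Probe set 1435358_at ran from 0.697 to 1.26 in knockouts and from 0.659 to 1.85 in controls, a difference of -0.12 ± 0.18.

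Both Esco1 probe sets came from the same source sequence. Ratios of 1424324_at were 0.419, 0.334 and 0.410 in knockouts and 1.99, 2.29 and 2.15 in controls at 2 months. They were 0.547, 0.605 and 0.603 against 2.41, 1.84 and 2.18 at 4 months, and 0.434, 0.433 and 0.433 against 2.03, 1.39 and 1.71 at 6 months. All 9 knockouts lay below all 9 controls. By age, the group means were 0.388 ± 0.0470, 0.585 ± 0.0328 and 0.434 ± 0.000375 in knockouts and 2.15 ± 0.151, 2.14 ± 0.286 and 1.71 ± 0.320 in controls (SD, n = 3). The difference was -2.10 ± 0.09, or 4.29-fold lower in knockouts, and the level was 2.17 to 3.93 array medians in knockouts and 9.06 to 15.7 in controls.

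Esco1 1424325_at did not show this difference. It read 1.23, 1.08 and 1.04 in knockouts and 0.999, 0.636 and 1.01 in controls at 2 months. It read 1.25, 0.957 and 0.661 against 0.553, 0.790 and 1.09 at 4 months, and 0.813, 1.01 and 1.07 against 0.996, 1.0 and 0.409 at 6 months. The knockouts lay above the controls at 2 months and overlapped them at 4 and 6 months. The difference was 0.33 ± 0.21, with a within-group SD of 0.30 in knockouts and 0.56 in controls.

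**Figure D2:**
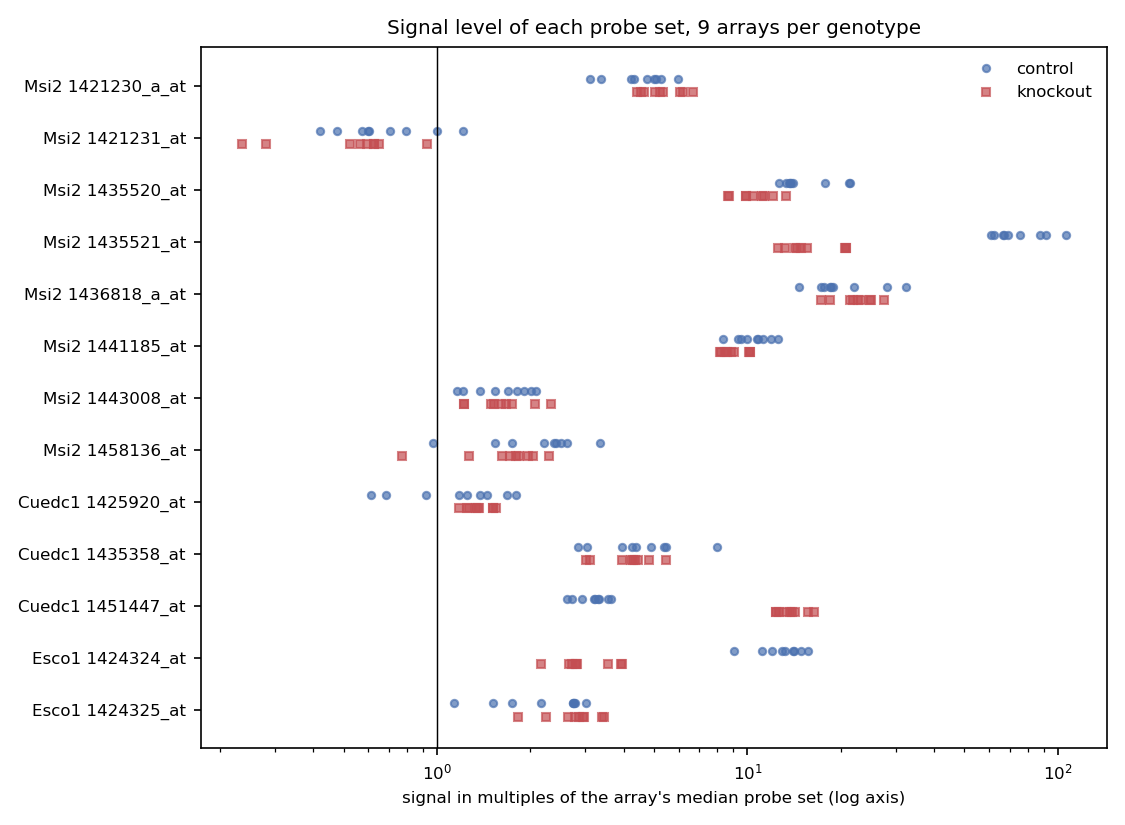
Level of each of the 13 probe sets in multiples of the array's median probe set (log axis), 1 point per array, knockouts and controls side by side. Msi2 1435521_at falls from 60.7 to 106 in controls to 12.5 to 20.7 in knockouts, Msi2 1421231_at lies mostly below 1, and levels of different probe sets cannot be set against each other.

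Of the 13 probe sets, 4 passed the threshold of 0.05 on limma's adjusted p over the mean of the ages, where 4.27% of all probe sets passed. They were 1435521_at, 1435520_at, 1451447_at and 1424324_at. The rule used this contrast, so nothing is read from that count. The member least far past the 4-fold bound was 1424324_at, at -2.10 on the log2 scale, and the nearest one short of it was 1435520_at, at -0.55. Over the whole array, 0.597% of probe sets were past 4-fold. All 9 knockouts lay on 1 side of all 9 controls in the 3 probe sets that chose the genes, as in 1.37% of all probe sets. Within an age, the knockouts and controls of 7, 7 and 4 of the 13 probe sets did not overlap at 2, 4 and 6 months, beside 17.2%, 14.6% and 16% of all probe sets. The 3 that chose the genes are in each of these counts, so nothing is read from them either. In 2.43% of all probe sets, the groups did not overlap in 1 direction at each age, as in the 3 that chose the genes.

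**Figure D3:**
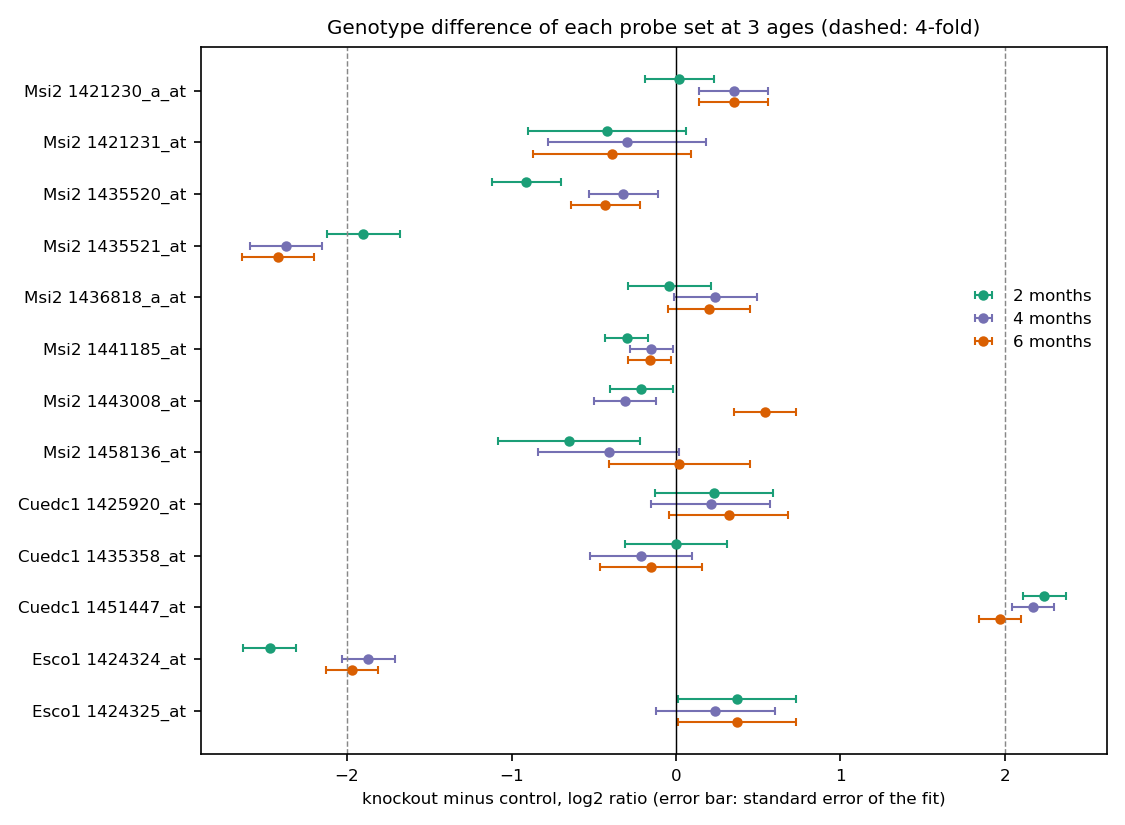
Knockout minus control on the log2 scale for each of the 13 probe sets at 2, 4 and 6 months. Bars are standard errors of the limma fit, and dashed lines mark 4-fold. Msi2 1435521_at lies between -2.42 and -1.90, Cuedc1 1451447_at between 1.97 and 2.24, and Esco1 1424324_at between -2.47 and -1.87. The further probe sets lie between -0.91 and 0.54.

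The 3 large differences were present at every age. Msi2 1435521_at differed by -1.90 ± 0.22 at 2 months, -2.37 ± 0.22 at 4 months and -2.42 ± 0.22 at 6 months. Cuedc1 1451447_at differed by 2.24, 2.17 and 1.97 at these ages, each ± 0.13, and Esco1 1424324_at by -2.47, -1.87 and -1.97, each ± 0.16. These 3 probe sets passed the threshold at each age, where 1.15%, 1.01% and 0.688% of all probe sets passed. In fits of only the 6 arrays of an age, 2, 0 and 2 of the 13 did. The rule chose these 3 by their genotype difference over the same arrays, so their passes are a description.

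Whether the genotype difference changed with age was not used to choose the genes and could be tested. In limma's moderated F-test, 0 of the 13 probe sets passed the threshold, beside 0.0111% of all probe sets, and 2 had an unadjusted p under 0.05. Esco1 1424324_at was one of them, with a difference smaller in size by 0.61 at 4 months and 0.51 at 6 months than at 2 months (SE 0.22 each, unadjusted p = 0.0361, adjusted p = 1.0). The other was Msi2 1443008_at, which differed by -0.21 at 2 months, -0.31 ± 0.19 at 4 months and 0.54 ± 0.19 at 6 months (unadjusted p = 0.0139, adjusted p = 0.982).

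Age within a genotype was tested in the same limma fit. Of the 13 probe sets, 0 passed the threshold in controls at 4 or 6 against 2 months or in knockouts at 4 or 6 against 2 months, beside 0.00222%, 0.0466%, 0.00888% and 0.0111% of all probe sets. Unadjusted p fell under 0.05 for 1, 0, 1 and 1 of them. In controls, Msi2 1421230_a_at differed by -0.46 ± 0.21 at 4 months (unadjusted p = 0.0452). In knockouts, Esco1 1424324_at differed by 0.60 ± 0.16 at 4 months (unadjusted p = 0.00200, adjusted p = 0.331), and Msi2 1443008_at by 0.63 ± 0.19 at 6 months (unadjusted p = 0.00553, adjusted p = 0.306).

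The sexes were unevenly spread over the genotypes, so the 3 large differences were read with sex as a covariate. They were then -2.25 for Msi2 1435521_at, 2.18 for Cuedc1 1451447_at and -2.12 for Esco1 1424324_at. Some further probe sets moved more. Away from 0, Esco1 1424325_at went from 0.33 to 0.63 ± 0.25 and Msi2 1458136_at from -0.35 to -0.67 ± 0.31. Cuedc1 1425920_at went past 0, from 0.25 to -0.09 ± 0.24. None of these passed the threshold (limma adjusted p = 0.243, 0.330 and 0.903). In the knockout read as female, of 6 months, Msi2 1435521_at lay at 0.325, Cuedc1 1451447_at at 1.55 and Esco1 1424324_at at 0.433. The knockouts of that age read as male lay at 0.366 and 0.307, at 1.66 and 1.58, and at 0.434 and 0.433. With log2(signal + 16), which shrinks differences of low signals, the 3 large differences were -2.14, 1.76 and -1.72.

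The probe sets of a gene were next compared within groups, where genotype and age play no part. After the mean of each group was removed, the log2 values of the probe set that chose a gene were correlated with those of each further probe set over the 18 arrays, with an exact permutation test within groups. Of 10 pairs, 0 passed the threshold after Benjamini-Hochberg adjustment, 0 had an unadjusted p under 0.05, and 4 of the 10 had a positive r. The lowest r was -0.57 between Cuedc1 1451447_at and 1425920_at (rho -0.44, exact permutation p = 0.0661, adjusted p = 0.661), and it was -0.39 without the 2 arrays farthest from the median. The highest was 0.49 between Msi2 1435521_at and 1436818_a_at (exact permutation p = 0.158, adjusted p = 0.791). The 2 Msi2 probe sets from a shared source sequence, 1435521_at and 1435520_at, gave -0.01 (exact permutation p = 0.974), and the Esco1 pair gave -0.23 (rho -0.29, exact permutation p = 0.573, adjusted p = 0.956).

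Pairs of probe sets from a shared source sequence were compared over the whole array to place the Msi2 and Esco1 pairs. There were 1966 such pairs with both probe sets not dim and naming the same gene alone. The median gap between the genotype differences of a pair was 0.14 on the log2 scale, the 95th percentile was 0.57, and 23 pairs (1.17%) were over 1 apart. The Esco1 pair was 2.43 apart, with 4 larger gaps, and the Msi2 pair of 1435521_at and 1435520_at was 1.68 apart, with 6 larger gaps. Since the rule picked genes by such a gap, these ranks are a description.

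**Figure D4:**
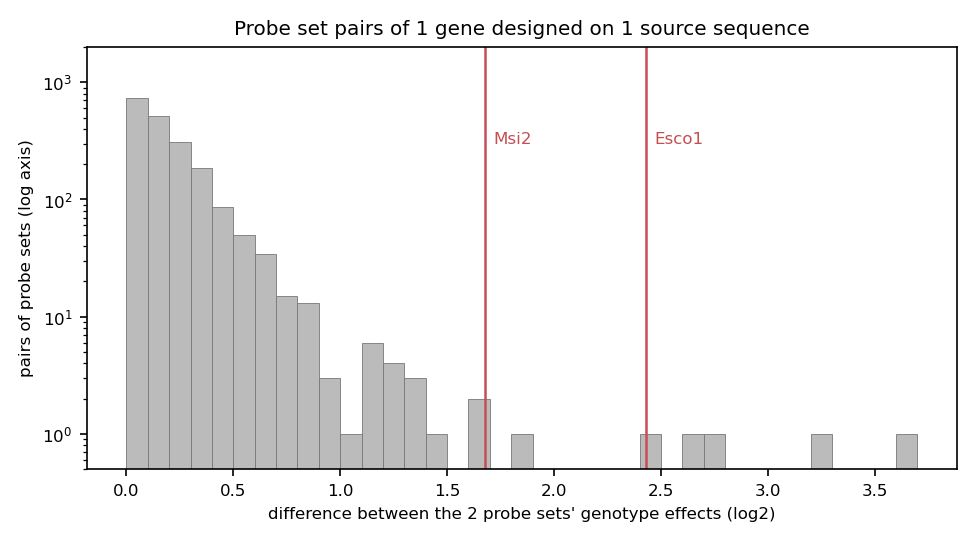
Number of pairs (log axis) of not dim probe sets designed against the same source sequence, by the gap between their genotype differences on the log2 scale, for 1966 pairs. Most pairs lie near 0 with a median gap of 0.14, and the marked Msi2 and Esco1 pairs lie at 1.68 and 2.43.

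A 4-fold difference was uncommon on the array, and among genes with one, a further probe set that missed the threshold was the usual case. These counts did not compare the sizes of the differences, and a probe set of wide spread can miss the threshold at any size. Of 9010 genes with more than 1 probe set naming them alone, 73 (0.810%) had 1 probe set past 4-fold and past the threshold and a further one that missed the threshold. Among the 5431 genes with more than 1 probe set that was not dim, 26 (0.479%) did, and Msi2, Cuedc1 and Esco1 were 3 of them. Only 91 of the 9010 genes had a probe set past both bounds at all, so the 73 were 80.2% of these, and the 26 were 72.2% of the 36 among probe sets that were not dim. With log2(signal + 16) the 73 became 10, and on that scale Cuedc1 1451447_at, at 1.76, and Esco1 1424324_at, at -1.72, fell short of 4-fold.

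Genes whose probe sets followed the same pattern over the 18 arrays were named by Pearson's r of log2 ratios, among 20618 probe sets that were not dim and named 1 other gene. With Msi2 1435521_at these were Minar2 (r 0.99), Riok3, Heatr5a and Tbc1d24 (0.98 each) and Abhd14a (0.97). With Cuedc1 1451447_at they were Cfap54, Abhd14b and Lsm12 (0.98 each) and Rwdd4a and Strbp (0.97 each). With Esco1 1424324_at they were Aak1, Abhd14a and Vamp3 (0.98 each) and Pip4k2c and Kcnab2 (0.97 each). These r rest largely on the gap between the genotypes, which the rule also used. Among the 3 probe sets themselves, r was 0.95 between Msi2 and Esco1, -0.95 between Msi2 and Cuedc1 and -0.96 between Cuedc1 and Esco1, and 0.38, 0.43 and -0.21 once group means were removed.

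The further probe sets of these companions were read against those of other genes. Of the 14 distinct genes, 12 had a further probe set that was not dim, and in 6 of these every further one missed the threshold. Of the 671 genes on the array with more than 1 probe set that was not dim and at least 1 past the threshold, every further one missed it in 70.9%. Vamp3, which encodes a vesicle SNARE protein, was at -1.45 in its matching probe set and at 0.23, -0.23, 0.13 and 0.16 in its others. Minar2 was at -3.14 and, in its other probe set that was not dim, at -0.11. In 4 genes a further probe set passed in the same direction, as in Abhd14a, at -2.74 and -1.98, and Lsm12, at 1.75 and 1.65.

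Genes beside the members on the chromosome were tested, since their differences were not used to choose the 3 genes. Over the 10 measured genes on each side, 42 neighbouring genes had 97 probe sets, of which 7 (7.22%) passed the threshold, 2 higher and 5 lower, beside 4.27% of all probe sets (1.78% higher and 2.50% lower). That count rested on the processing. It was 14 with log2(signal + 16) and 12 with dim probe sets left out of the fit. It was 11 with a trended and robust prior and 4 with sex as a covariate. The 4.27% belongs to the main fit, and the share of all probe sets under these settings was not set beside the counts. A window of 5 genes on each side, which holds fewer probe sets, had 3. Of the 97 probe sets, 59 were not dim, beside 24440 of all 45037. The median neighbour differed by -0.05. Around Cuedc1 and Msi2 on chromosome 11, Mks1, a gene of the ciliary transition zone, was lower at -0.39 ± 0.09 (limma adjusted p = 0.0263). Dynll2, a dynein light chain gene, was higher in 1418371_at at 0.68 ± 0.12 (adjusted p = 0.00469) and at 0.02 in its other probe set. Dgke, a diacylglycerol kinase gene, was lower in 1423000_a_at at -1.35 ± 0.15 (adjusted p = 0.000118) and at -0.28 and 0.21 in its others.

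Around Esco1, which lies on chromosome 18, 4 of 56 neighbouring probe sets passed, 1 higher and 3 lower. Riok3, an atypical kinase gene, had probe sets past the threshold in both directions, at -3.08 ± 0.15 in 1460670_at (limma adjusted p = 4.34e-08) and 0.53 ± 0.07 in 1422650_a_at (adjusted p = 0.000440), with its others at 0.16 and -0.24. Greb1l was lower in 1439341_at at -0.87 ± 0.17 (adjusted p = 0.00906) and at -0.14 in its other probe set. The dim Tmem241 probe set 1444170_at was lower at -2.80 ± 0.27 (adjusted p = 2.78e-05), while its others were at 0.25 and 0.40. Of the 6 neighbouring genes with a probe set past the threshold, 5 also had 1 that missed it and Mks1 had 1 probe set. Such a miss was the usual case, present in 90.4% of the 886 genes with more than 1 probe set and at least 1 past the threshold.

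**Figure D5:**
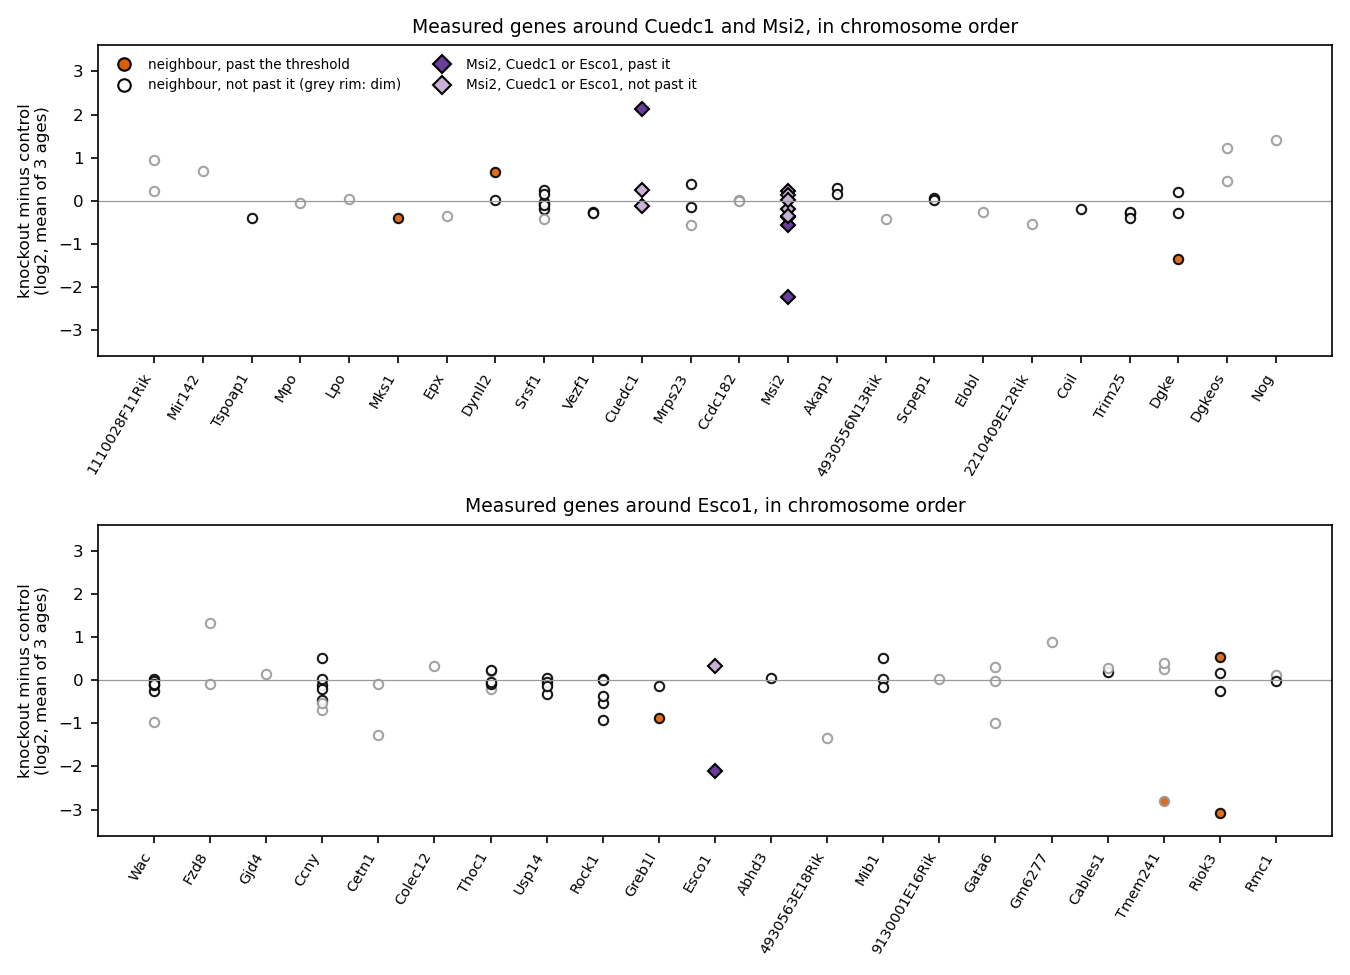
Genotype difference (log2 of knockout over control, mean of the ages) of all probe sets of the 10 measured genes on each side of Cuedc1, Msi2 and Esco1, by place in gene order. The lowest neighbour is Riok3 beside Esco1 at -3.08, and 7 of 97 neighbouring probe sets passed the threshold.

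Genes related to the 3 members by function were counted by list, beside 4.27% of all probe sets past the threshold. The lists were chosen with earlier results of these data known, so their counts, shares and adjusted p values are a description. The 6 probe sets that passed over the 3 lists became 10 with log2(signal + 16), a setting whose share of all probe sets is not given here. Besides Msi2, 11 genes of Musashi proteins and their known RNA targets had 18 probe sets, of which 0 were higher and 2 lower (11.1%), with a median of -0.21. Both were of Cacna2d4, a calcium channel subunit gene of the photoreceptor synapse, at -0.59 ± 0.09 (limma adjusted p = 0.00146) and -0.41 ± 0.09 (adjusted p = 0.0125), while its remaining probe set was at -0.05. Besides Cuedc1, 8 of 9 genes of CUE domain proteins had 14 probe sets, of which 0 passed in either direction, with a median of 0.03.

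Besides Esco1, 20 of 22 genes of cohesin and its regulators had 52 probe sets, of which 0 were higher and 4 lower (7.69%, beside 4.27% of all probe sets), with a median of -0.07. The median over all probe sets was 0.00. Of all 45037 probe sets, 24440 were not dim, beside 39 of these 52. In the Musashi list 13 of the 18 were not dim, and in the CUE domain list 12 of the 14. The share of 4.27% thus covers more dim probe sets in proportion than the lists hold. The probe sets of Pttg1, which encodes securin, the inhibitor of the protease that cleaves cohesin, lay at -1.25 ± 0.21, -1.94 ± 0.18 and -2.51 ± 0.21 (limma adjusted p = 0.00279, 1.46e-05 and 5.46e-06), so unlike those of Esco1 they moved together. The fourth was a dim probe set of Rec8, a meiotic cohesin subunit gene, at -4.02 ± 0.56 (adjusted p = 0.000643).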

How the data were processed

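RNA of 18 mouse retinas was measured on Affymetrix arrays, 1 array per retina, in 6 groups of 3. The deposited values are linear ratios, and per the submitters' processing notes RMA was named for 18 samples and GCOS for 16, with no version. The step that made the signals is not given in the sources used here. The deposited ratios were resolved, for 100% of probe sets, into signals in steps of 0.1 divided by the array median (tolerance 0.02 of a step) and then by the probe set's median, or by 0.797 array medians for dim probe sets (45.7%). Ratios under 0.01 had been set to 0.01. Depth has no meaning for arrays, and the number of arrays limits the precision.

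Gene names came from the platform annotation and chromosome order from RefSeq. Of the probe sets, 64 controls were left out. The log2 ratios of 45037 probe sets were fitted with limma 3.58.1 in R 4.3.3, with 1 mean per group, 12 residual degrees of freedom, moderated two-sided tests and Benjamini-Hochberg adjustment over all probe sets of a contrast (threshold 0.05). Correlations within groups used all 46656 arrangements of arrays within groups. Sex was read from Xist alone (female at a log2 ratio above 2), with Y-linked genes set beside it. The fit was tested on simulated data. Figures were drawn with matplotlib 3.10.9. The permutations used numba 0.67.0 with numpy 2.4.6 and pandas 2.3.3 in Python 3.11.15, and R read the files with data.table (version 1.17.8).

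All probe sets of the members are described. For each member, the 5 probe sets of other genes with the highest Pearson r were named, besides neighbours and list members past the threshold and Rpe65. The members and lists were chosen with earlier results of these data known. Alternatives covered the scale, scaling, prior, dim probe sets, probe set types, sex, the arrays fitted, the neighbour window and leaving out each array. Leaving out the arrays with high lens signal or low actin 5' to 3' difference was added after seeing the data.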

Additional observations from a re-analysis of the deposited data

Results flagged for a closer look

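Msi2 1443008_at is given here because its genotype difference changed sign between ages. At 4 months all 3 knockouts (0.910 to 1.02) lay below all 3 controls (1.10 to 1.27), a difference of -0.31 on the log2 scale. At 6 months all 3 knockouts (1.06 to 1.42) lay above all 3 controls (0.705 to 1.03), a difference of 0.54. Groups that did not overlap were common, with 14.6% of all probe sets at 4 months and 16% at 6 months. How often the sides were opposite at these ages was not counted over all probe sets. The probe set was also picked from 13 for its change of sign, so the change is a description. The difference between ages did not pass limma's moderated F-test after adjustment over all probe sets (unadjusted p = 0.0139, adjusted p = 0.982). Arrays of 6 months also had higher signal before scaling, whose part was not tested.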

How the results depend on the processing

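Of 338 counts recomputed under the alternatives, 329 stayed within 1.5 times the reported count, including all that left out 1 array. Many of them were counts of 0 or passes of probe sets that the rule picked for large differences. Their number therefore says little about the other counts. With log2(signal + 16), the genes with 1 probe set past 4-fold and a further one that missed the threshold numbered 10 in place of 73. Neighbouring probe sets past the threshold then numbered 14 in place of 7, and list members 10 in place of 6. With only probe sets that were not dim in the fit, the first count was 24 and that of neighbours 12. Neighbours numbered 11 with a trended and robust prior and 4 with sex as a covariate. They numbered 3 in the smaller window of 5 genes on each side, which holds fewer probe sets. Shares of all probe sets under these settings were not set beside the counts. With only the 6 arrays of 4 months, 0 of the 13 probe sets passed at that age in limma in place of 3. Of 337 recomputed differences of single probe sets, 323 kept their direction and side of the threshold, 2, both of Msi2 1435520_at as given above, no longer passed, and 12, in 4 probe sets that passed under no setting, changed sign. With sex as a covariate Msi2 1436818_a_at was at -0.05 and Cuedc1 1425920_at at -0.09. Msi2 1443008_at, near 0 throughout, was at -0.01 with arrays centred on their median, -0.04 without the 2 arrays of lowest actin 5' to 3' difference, and -0.05 to 0.06 without 1 array, with 6 of those 18 values below 0. Cuedc1 1435358_at was at 0.04 without those 2 arrays, and -0.23 to 0.02 without 1 array, positive only without control retina 14 of 4 months. The causes were not tested. No paired analysis was possible because the knockouts and controls compared share no retina numbers at any age. Dim probe sets, with a median within-group SD of 1.16 against 0.25 in the others, limit what their differences can show.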

Other observations

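A further probe set, 1453808_at, names Cuedc1 together with 2210416O15Rik and was therefore not counted among the Cuedc1 probe sets. It was dim, with ratios of 0.0965 to 0.935 in knockouts and 0.0554 to 0.384 in controls, and the difference was 1.08 ± 0.44 (limma adjusted p = 0.236).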
